A study of Mus musculus with 4 samples.

Results

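The genes described here are 10 genes of the neuronal cytoskeleton, out of 47729 genes measured in subcutaneous tumors grown from LLC, the Lewis lung carcinoma line of the mouse. They are the microtubule-associated proteins Map2, Mapt, Map1a and Map1b, the β-tubulin Tubb3, the regulators of growing axons Dcx, Stmn2, Dpysl3 and Gap43, and the intermediate filament gene Nes. The set was proposed with the measured values known, since Map2 stood among the genes that differed most between the groups. The differences of these 10 genes are therefore given as a description, with no p-value. The control pools (LLC) came from tumors of cells labelled wild type, and the LLC-Chem pools from tumors of cells transfected with the plasmid pEFIN that encodes murine chemerin (1-157), a chemoattractant protein and adipokine. Hosts of both groups were syngeneic C57BL/6 mice, and tumors were collected on day 5. Each group held 2 pools of 3 tumors, so that 6 tumors stood behind 2 libraries. The study describes transfected lines made from selected clones and also an empty vector line, and it does not say how many clones formed these tumors. A general age range of young animals is stated for the mice of the study, and none for these hosts in particular.

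A neuron builds its axon and dendrites around bundles of microtubules, hollow polymers of α- and β-tubulin. Microtubule-associated proteins line these polymers and set their spacing and stability, with MAP2 in dendrites and tau, the product of Mapt, in axons. Stathmins, collapsin response mediator proteins (CRMPs) and doublecortin act on the growing ends or on free tubulin, and nestin forms intermediate filaments in neural progenitors. Several of these genes are also used outside the nervous system, in muscle, in vessels and in tumor cells.

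Levels were measured as RPM, reads scaled by the authors to the same total in every pool. The study gives only an approximate number of reads a sample. Library totals were inferred from the steps of the deposited RPM, with rounding up assumed, as 28470000 to 33990000 reads. The read counts and Poisson intervals given below rest on these inferred totals. In these libraries 3 reads, taken as the smallest detectable amount, were worth 0.0883 to 0.105 RPM. The transfected gene Rarres2, which encodes chemerin, measured 102 and 98.2 RPM in LLC and 105.9 and 105.8 RPM in LLC-Chem (difference on the log2 scale 0.08, adjusted p = 0.541, limma), so that its level does not check the labels. Group differences are those of log2(RPM + 0.5), LLC-Chem minus LLC, with their standard error (SE) from limma, a scale that understates the change of weakly expressed genes. Tests ran over the 13694 genes whose mean reached 1 RPM, and a gene was called at an adjusted p under 0.05. With 2 pools against 2, no exact permutation test on 1 gene can give a p under 0.33, and nothing says that the pools of a group came from separate cultures, so that p-values measure only the spread between these pools.

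Across the 10 genes, Map2 was far higher in LLC-Chem tumors, Dpysl3 was moderately higher, Tubb3 was far lower and Nes moderately lower. Map1b and Gap43 had lower means and Map1a a higher mean in LLC-Chem, with smaller differences. Mapt and Stmn2 stayed below 1 RPM in every pool, and no read of Dcx was found. Of the 7 genes that passed the filter on low values, limma called 2 higher, Map2 and Dpysl3, where 9.54% of all genes tested were called higher. It called 2 lower, Tubb3 and Nes, where 13.5% of all genes were called lower. These calls use the values on which the set was chosen, so the counts are printed as a description and nothing is read from them. Over 10 other settings that kept all pools and a filter on low values (in 1 of them a mean of at least 5 RPM), the call of Nes was lost in 7 and that of Dpysl3 in 2, and Map1b was called lower in 2. Both LLC-Chem pools lay above both LLC pools for 3 of the 7, as for 33.1% of all genes, and below them for 3, as for 39.3% of all genes. Map2 passed the filter only through its LLC-Chem pools. The median difference of the 7 genes was -0.43, against -0.04 for all genes tested. With any 1 pool left out, 2 pools stood against 1 and limma called none of the 13694 genes, so that such fits show only how far the differences move. That of Map2 then lay between 3.51 and 4.06, that of Tubb3 between -3.14 and -2.45, that of Dpysl3 between 0.51 and 0.73 and that of Nes between -1.04 and -0.51.

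**Figure D1:**
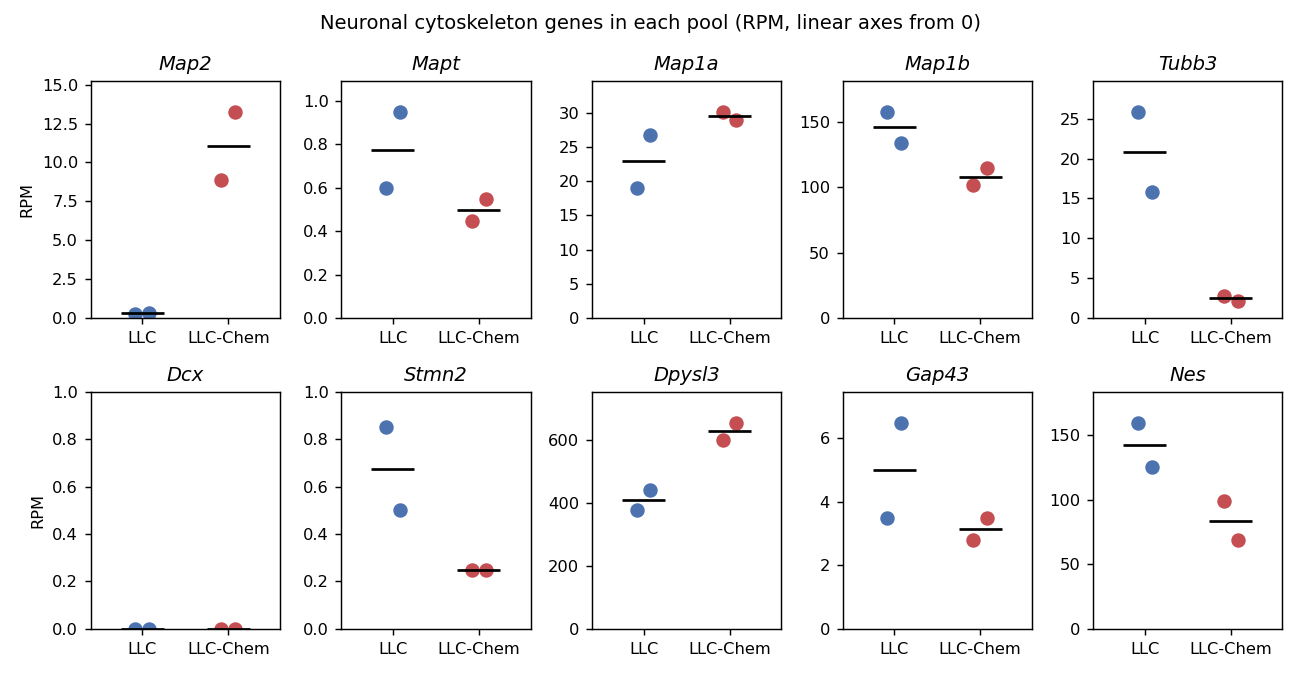
Level of each of the 10 genes in each pool, in RPM on linear axes that start at 0 and differ between panels. Points are pools, horizontal bars are group means (n = 2), and the pools overlap between the groups for Gap43 while Dcx stays at 0 in all 4.

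**Figure D2:**
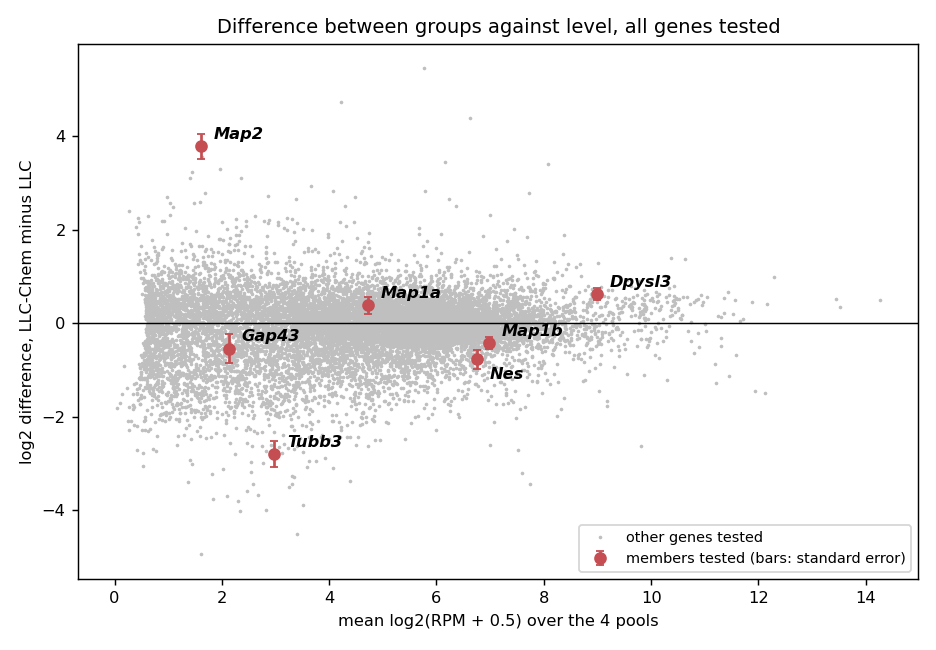
Difference between the groups (LLC-Chem minus LLC) against the mean level over the 4 pools, both on the log2(RPM + 0.5) scale, for the genes tested. Red points are the 7 genes of the set that were tested, with their SE, and Map2 and Tubb3 lie at the upper and lower edge of the cloud.

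Map2 (ENSMUSG00000015222) encodes MAP2, the protein used in histology to mark neuronal cell bodies and dendrites. The gene runs from 66175273 to 66442583 of chromosome 1 (GRCm38, plus strand). Its level was 0.2998 and 0.3498 RPM in LLC and 8.90 and 13.2 RPM in LLC-Chem. The groups did not overlap, and the lowest LLC-Chem value was many times the highest LLC value. The deposited steps allow 8 or 9 reads in LLC pool 1 and 9 in LLC pool 2, with exact 95% Poisson intervals of 0.112 to 0.554 and 0.145 to 0.6001 RPM. They allow 301 or 302 and 443 or 444 reads in the LLC-Chem pools, with intervals of 7.88 to 9.95 and 12.01 to 14.5 RPM. Intervals run from the lower limit of the fewest to the upper limit of the most reads allowed and cover counting error only. The means were 0.325 ± 0.0354 RPM and 11.1 ± 3.07 RPM (SD, n = 2), a ratio of 34.1. The difference was 3.78 (SE 0.26), the 4th highest of the 13694 genes, and stayed between 3.16 and 5.30 under 15 other ways of processing. An antisense gene, Gm10558, covers 0.754% of the exon bases of Map2, and its reads cannot be told apart here because the use of strand in counting is not stated.

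Even after this difference Map2 was a minor transcript of its family. Per kilobase of exon it measured 0.0197 RPM in control tumors and 0.673 RPM in LLC-Chem. Its share of the summed level per kilobase of Map2, Mapt and Map4 was 0.0797% and 0.0949% in the LLC pools and 2.01% and 2.83% in the LLC-Chem pools. Map4, the form expressed in most tissues, made up at least 96.9% of that sum in every pool. Its own difference was 0.26 (SE 0.10, adjusted p = 0.120, limma), which did not pass the test.

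The promoters of the genes at the ends of the range, Map2 and Tubb3, and of the undetected Dcx show how different their start regions are. The sequences run from 250 bases before to 50 bases after the annotated start (RefSeq, GRCm38.p6, 6 of the 10 genes matched), 5′ to 3′ on the gene's own strand. Capitals mark GGGCGG, the core of the GC box, on either strand.
Map2 (chr1:66175079-66175378, plus strand): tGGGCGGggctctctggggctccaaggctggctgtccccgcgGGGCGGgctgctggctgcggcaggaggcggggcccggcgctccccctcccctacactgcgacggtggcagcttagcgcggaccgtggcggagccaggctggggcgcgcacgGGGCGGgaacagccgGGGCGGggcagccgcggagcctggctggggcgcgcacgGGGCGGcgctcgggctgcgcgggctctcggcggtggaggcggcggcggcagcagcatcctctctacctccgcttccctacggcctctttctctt
Tubb3 (chr8:123411303-123411602, plus strand): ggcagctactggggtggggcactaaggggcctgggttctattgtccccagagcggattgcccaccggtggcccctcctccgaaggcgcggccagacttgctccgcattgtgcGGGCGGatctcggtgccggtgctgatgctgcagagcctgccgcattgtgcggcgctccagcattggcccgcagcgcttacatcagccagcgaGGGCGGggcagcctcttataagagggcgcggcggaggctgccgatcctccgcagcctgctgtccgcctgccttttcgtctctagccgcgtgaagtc
Dcx (chrX:143933170-143933469, minus strand): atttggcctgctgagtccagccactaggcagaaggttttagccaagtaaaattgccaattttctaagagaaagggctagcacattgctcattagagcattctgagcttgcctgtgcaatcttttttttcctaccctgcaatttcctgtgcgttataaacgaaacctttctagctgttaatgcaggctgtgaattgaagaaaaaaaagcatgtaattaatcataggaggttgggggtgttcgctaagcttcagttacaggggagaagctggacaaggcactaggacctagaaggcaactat
The Map2 window holds 5 copies of GGGCGG and 37 CpG dinucleotides and is 77.7% G and C. The Tubb3 window holds 2 copies and 26 CpG at 67.3%. The Dcx window has 3 CpG, no copy of GGGCGG and 43.0% G and C. The window of another annotated Dcx start, not shown, has 3 CpG, no copy and 44.7%. Over all 32851 promoters of this length the median was 7 CpG and 52.7% G and C, and 35.7% held GGGCGG. The letters ACGTG, a form of the core bound by hypoxia-inducible factors, were found in 19.6% of all promoters on either strand. They were in none of these 3 windows, while the Map1b window held 1 copy. This says only that these letters are not in these bases. The form GCGTG was not counted, and the Tubb3 window shows it near its end.

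Mapt (ENSMUSG00000018411) encodes tau, the axonal partner of MAP2, on chromosome 11 from 104231390 to 104332090 on the plus strand. It measured 0.5997 and 0.9495 RPM in LLC and 0.4497 and 0.5497 RPM in LLC-Chem, from 14 to 27 reads a pool. Both LLC-Chem values lay below both LLC values, but their Poisson intervals, 0.225 to 0.728 and 0.2955 to 0.849 RPM, overlapped those of LLC, 0.321 to 0.923 and 0.597 to 1.38 RPM. Its mean was under the filter, so it has no fit. While Map2 went from below Mapt to above it, the level of tau transcripts gave no difference that could be shown at this depth.

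Map1a and Map1b encode heavy proteins that link microtubules to actin, MAP1B in growing axons and MAP1A in mature neurons. Map1b (chromosome 13, 99421446 to 99516540, minus strand) was at 158 and 134 RPM in LLC and 102 and 115 RPM in LLC-Chem. Map1a (chromosome 2, 121289600 to 121310832, plus strand) was at 18.9 and 26.8 RPM in LLC and 30.1 and 28.9 RPM in LLC-Chem. The groups did not overlap for either gene, in opposite directions. The difference of Map1b was -0.43 (SE 0.12) and that of Map1a was 0.38 (SE 0.19), and neither was called. Map1a is the less firm of the pair, since its difference was 0.14 without LLC pool 1 and 0.62 without LLC pool 2. Ppip5k1, on the other strand, covers 2.24% of the exon bases of Map1a. Within the MAP1 family Map1a made up 7.61% and 11.3% of the summed level per kilobase in LLC and 13.1% and 13.0% in LLC-Chem, while Map1b made up 48.7% and 43.4% and then 34.0% and 39.5%. The third form, Map1s, had a difference of 0.07 (SE 0.11, adjusted p = 0.661, limma), which turned to -0.03 without LLC-Chem pool 1.

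Tubb3 (ENSMUSG00000062380) encodes class III β-tubulin, the isotype used to identify young neurons and also known in some carcinomas. The gene runs from 123411424 to 123422015 of chromosome 8 (GRCm38, plus strand). Tubulin isotypes are alike as proteins over most of their length and differ most at the end, and the last 90 bases of the coding sequence, stop codon included, are shown for Tubb3, for the most abundant isotype Tubb5 and for the neuronal pair Tubb2a and Tubb2b (GENCODE M21 on GRCm38, 5′ to 3′). Capitals mark bases that differ from Tubb3 or have no counterpart in it when the coding sequences are aligned with gaps at the ends unpenalized. The ends need not meet, so last bases of Tubb3 can stay unpaired, and the marks do not count them.
Tubb3: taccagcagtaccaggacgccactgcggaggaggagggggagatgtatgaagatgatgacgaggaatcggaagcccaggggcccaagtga
Tubb5: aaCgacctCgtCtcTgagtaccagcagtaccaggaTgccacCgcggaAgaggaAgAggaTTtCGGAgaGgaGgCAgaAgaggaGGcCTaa
Tubb2a: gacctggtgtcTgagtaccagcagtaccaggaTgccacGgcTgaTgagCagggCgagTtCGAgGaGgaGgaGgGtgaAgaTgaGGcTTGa
Tubb2b: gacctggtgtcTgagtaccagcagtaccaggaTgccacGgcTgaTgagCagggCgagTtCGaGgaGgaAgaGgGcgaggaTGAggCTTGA
Over the aligned bases (1335 or 1338, of 1353 in Tubb3), Tubb3 was 82.1% identical to Tubb5, 84.3% to Tubb2a and 84.2% to Tubb2b. Of the last 90 bases of these 3 genes, 23 or 24 were marked. None of the 50-base words of the Tubb3 transcripts occurs in another annotated gene. Tubb2a, by contrast, shares 49.6% of its words, most often with Tubb2b, and Tubb4b shares 41.3%, most often with its pseudogene Tubb4b-ps1. Values of these 3 genes are thus uncertain where reads were split between copies, while those of Tubb3 are not open to this.

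Tubb3 measured 25.8 and 15.8 RPM in LLC and 2.80 and 2.20 RPM in LLC-Chem. The groups were well apart, and each LLC-Chem value was backed by fewer than 100 reads (at most 95 and 73). The means were 20.8 ± 7.07 RPM and 2.50 ± 0.424 RPM (SD, n = 2), so that the LLC mean was 8.34 times the LLC-Chem mean. The difference was -2.80 (SE 0.28), the 34th lowest of all genes tested, and it lay between -3.14 and -2.45 under the other ways of processing.

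The other β-tubulins were mostly lower in LLC-Chem too, by less. Tubb6 fell from 313 and 299 RPM to 162 and 127 RPM, a difference of -1.09 (SE 0.14, adjusted p = 0.0135, limma). Tubb2a fell by 1.06 (adjusted p = 0.0173, limma), Tubb2b by 0.96 (adjusted p = 0.0188, limma) and Tubb4b by 0.70 on the log2 scale (adjusted p = 0.0150, limma). Tubb5, which made up 50.2% and 50.5% of all β-tubulin per kilobase in LLC and 63.0% in both LLC-Chem pools, had a difference of -0.19 (SE 0.14, adjusted p = 0.360, limma). Tubb4a, whose pools overlapped, had -0.42 (SE 0.35, adjusted p = 0.392, limma). The summed level of the β-tubulins was 665 and 643 RPM per kilobase in LLC and 489 and 431 in LLC-Chem. Within that sum Tubb3 took 2.08% and 1.32% in the LLC pools and 0.306% and 0.273% in the LLC-Chem pools. The fall of the sum and the shift within it are separate measurements, and the difference between Tubb3 and the other isotypes was not tested because Tubb3 was chosen on this contrast.

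**Figure D3:**
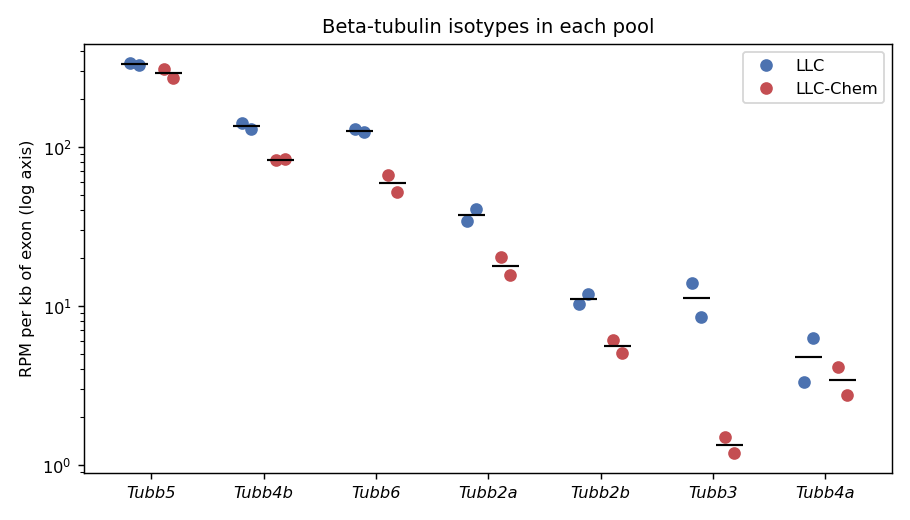
Level of 7 β-tubulin isotypes in each pool, in RPM per kilobase of exon on a log axis. Points are pools and bars are group means (n = 2), and the gap between LLC and LLC-Chem is widest for Tubb3.

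Of the 18 other tubulin genes listed, 14 were tested. Of these 14, 9 fell (64.3%, beside 13.5% of all genes tested) while 5 did not pass the test. Tuba4a fell most among them, from 76.2 and 60.3 RPM to 29.2 and 26.2 RPM (-1.28, SE 0.15, adjusted p = 0.0126, limma). The median difference of the 14 was -0.69, against -0.04 for all genes.

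Dcx (ENSMUSG00000031285) encodes doublecortin, the microtubule-binding protein of migrating neuroblasts, on the X chromosome from 143855842 to 143933311 on the minus strand. It had 0 reads in all 4 pools, under the amount of 3 reads, 0.0973 and 0.105 RPM in LLC and 0.0883 and 0.0895 RPM in LLC-Chem. The exact Poisson upper limits for a count of 0 were 0.1196 and 0.1296 RPM in LLC and 0.1085 and 0.1101 RPM in LLC-Chem. Of its relatives, the doublecortin-like kinases, Dclk3 did not exceed 0.2998 RPM, and the other two moved in opposite directions. Dclk2 rose from 13.2 and 14.3 RPM to 41.6 and 45.8 RPM (1.63, SE 0.13, adjusted p = 0.00726, limma). Dclk1 fell from 31.7 and 33.2 RPM to 22.0 and 21.7 RPM (-0.56, SE 0.12, adjusted p = 0.0291, limma). Dclk2 made up 36.5% and 37.9% of the summed level per kilobase of this family in LLC and 72.8% and 74.9% in LLC-Chem, so that the leading form changed from Dclk1 to Dclk2.

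Stmn2 (ENSMUSG00000027500; chromosome 3, 8509360 to 8561606, plus strand) encodes stathmin-2 or SCG10, a membrane-bound protein of growth cones that binds tubulin. It measured 0.8495 and 0.4997 RPM in LLC and 0.2499 RPM in both LLC-Chem pools, from at most 26, 14, 8 and 8 reads. The pools of the groups did not overlap. The Poisson interval of LLC pool 1, 0.525 to 1.24 RPM, lay above those of both LLC-Chem pools, while that of LLC pool 2, 0.243 to 0.825 RPM, overlapped those of both LLC-Chem pools, of which the wider was 0.0840 to 0.4703 RPM. It has no fit, as its mean was under 1 RPM. Stmn1, the stathmin of dividing cells, made up at least 95.9% of the family per kilobase in every pool and had a difference of -0.40 (SE 0.15, adjusted p = 0.104, limma). Stmn4, at 0.5997 to 2.65 RPM, had -0.94 (SE 0.38, adjusted p = 0.121, limma), and Stmn3 was at or under 0.0999 RPM.

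Dpysl3 encodes CRMP4, a protein that binds actin and tubulin in growth cones, and it was by far the most abundant of the 10 genes. It lies on chromosome 18 of GRCm38 and measured 377 and 441 RPM in LLC and 599.8 and 656 RPM in LLC-Chem. Every LLC-Chem value was above every LLC value. The means were 409 ± 44.8 RPM and 628 ± 39.6 RPM (SD, n = 2), a ratio of 1.53, and the difference was 0.62 (SE 0.13). It made up 72.5% and 78.9% of the CRMP family per kilobase in LLC and 80.7% and 80.1% in LLC-Chem. Dpysl2, which encodes CRMP2, had a difference of 0.46 (SE 0.13, adjusted p = 0.0530, limma), which was called higher in 5 of the 10 other settings. Crmp1, its relative in neurons, fell from 36.0 and 27.1 RPM to 14.4 and 15.4 RPM (-1.05, SE 0.17, adjusted p = 0.0190, limma). Dpysl4 and Dpysl5 did not exceed 0.3498 RPM.

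Gap43 (ENSMUSG00000047261; chromosome 16, 42248442 to 42340651, minus strand) encodes a growth-associated protein of axon tips. It measured 3.50 and 6.50 RPM in LLC and 2.80 and 3.50 RPM in LLC-Chem, and it was the only one of the 7 tested genes whose groups overlapped. Its difference was -0.54 (SE 0.32) and ranged from -0.95 without LLC pool 1 to -0.14 without LLC pool 2. Related proteins of the growing membrane were more abundant. Marcks fell by 0.78 (adjusted p = 0.0158, limma) and Marcksl1 by 0.83 on the log2 scale (adjusted p = 0.0249, limma), while Basp1 had -0.96 (SE 0.27, adjusted p = 0.0531, limma).

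Nes (ENSMUSG00000004891; chromosome 3, 87971078 to 87980451, plus strand) encodes nestin, an intermediate filament of neural progenitors that is also known in the endothelium of new vessels and in pericytes. It measured 159 and 125 RPM in LLC and 98.8 and 68.7 RPM in LLC-Chem. The groups did not overlap, and the distance between the pools of 1 group was about as large as that between the nearest pools of the groups. The means were 142 ± 24.1 RPM and 83.8 ± 21.3 RPM (SD, n = 2), a ratio of 1.70 between LLC and LLC-Chem. The difference was -0.77 (SE 0.21). It ranged from -0.51 without LLC-Chem pool 2 to -1.04 without LLC-Chem pool 1. Vim, the partner with which nestin forms filaments, made up at least 97.1% of its family per kilobase and had a difference of 0.42 (SE 0.24, adjusted p = 0.232, limma). The neurofilament genes Nefl (-2.05, SE 0.47, adjusted p = 0.0355, limma) and Nefm (-1.24, SE 0.29, adjusted p = 0.0382, limma) fell from at most 5.55 RPM, calls that were lost with the replicate block and, for Nefl, also with edgeR and with eBayes without trend. Des, which encodes the desmin of muscle and pericytes, fell from 8.25 and 5.05 RPM to 2.55 and 1.65 RPM (-1.44, SE 0.31, adjusted p = 0.0317, limma). Nefh and Ina did not exceed 0.200 RPM.

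**Figure D4:**
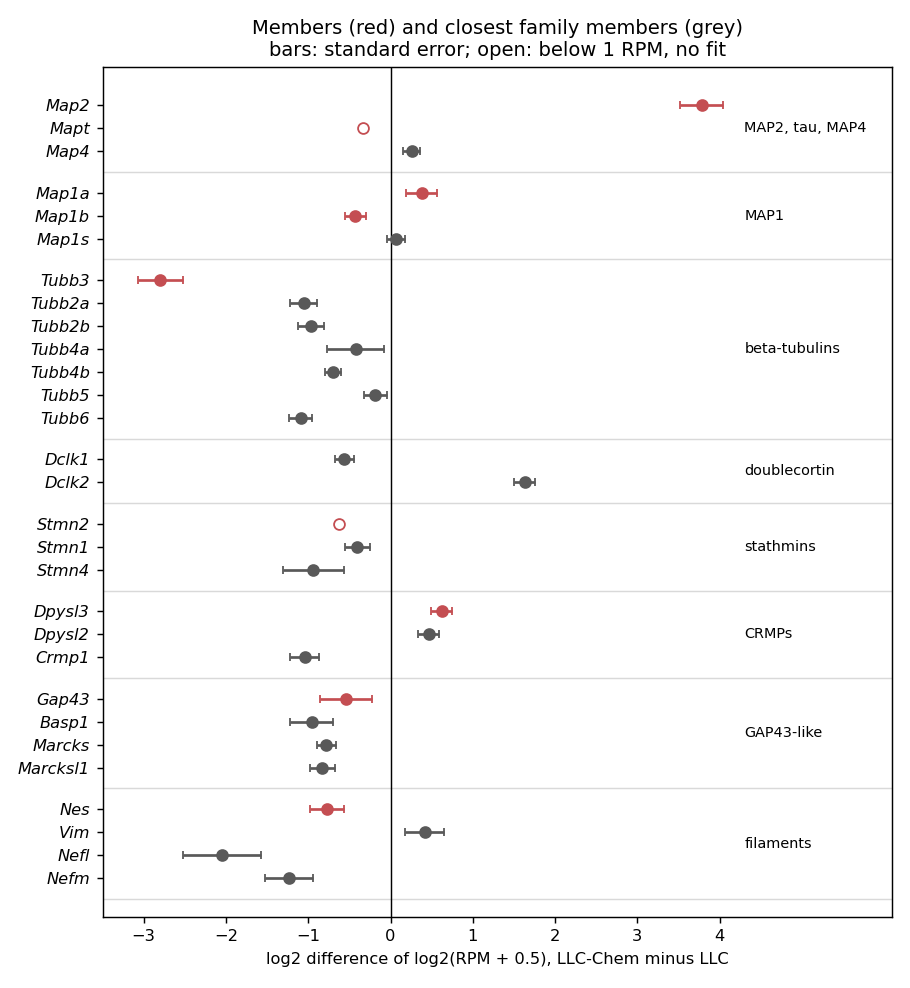
Difference between the groups (LLC-Chem minus LLC, log2(RPM + 0.5) scale) for genes of the set in red and their closest relatives in grey, ordered by family, with bars for the SE. Open points are genes of the set under the filter that have no fit, Dcx at 0 is not drawn, and the sign of Tubb4a and Map1s turns when 1 pool is left out.

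Across genes, levels were compared per kilobase of exon. In LLC the order was Dpysl3 (61.9 RPM per kilobase), Nes (22.2), Tubb3 (11.2), Map1b (9.21), Gap43 (3.28), Map1a (1.88), Stmn2 (0.120), Mapt (0.103), Map2 (0.0197) and Dcx. Tubb3 and Map1b overlapped between pools, as did Stmn2 and Mapt, so that these neighbours do not differ beyond their spread. In LLC-Chem the levels were 95.01 RPM per kilobase for Dpysl3, 13.1 for Nes, 6.83 for Map1b, 2.42 for Map1a, 2.07 for Gap43, 1.34 for Tubb3, 0.673 for Map2, 0.0664 for Mapt and 0.0446 for Stmn2, and the pool values of no neighbours in this order overlapped. Mapt and Stmn2 rest there on at most 18 and 8 reads a pool, so that counting error makes their order uncertain. Tubb3 went from the third to the sixth place and Map2 from the ninth to the seventh. When the length of the longest transcript was used in place of all exon bases, Map2 reached 1.77 RPM per kilobase in LLC-Chem against 1.34 for Tubb3, with overlapping pools (1.42 and 2.12 against 1.498 and 1.18), and Gap43 (1.97 and 2.46) overlapped both Map2 and Map1a (2.54 and 2.44). In LLC, Map1b (12.4) then stood above Tubb3 (11.2), again with overlapping pools.

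The wider families were taken as 6 lists of 97 genes, written from general knowledge and without the 10 genes themselves. Of these, 77 passed the filter, and 11 rose, 19 fell and 47 did not pass the test, with a median difference of -0.27. The shares called, beside the 9.54% and 13.5% of all genes, describe these lists and mark nothing as particular to them. The quasi-likelihood test of edgeR on recovered reads of all 4 pools called 13 higher and 17 lower.

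Among 21 other microtubule-associated proteins tested, 4 rose (19.0%, beside 9.54% of all genes) and 2 fell (9.52%, beside 13.5%). Beside Dclk2, the rises included Map9, a protein of the spindle and cilium (1.00, SE 0.22, adjusted p = 0.0333, limma), and Mapre3, the neuronal end-binding protein EB3 (0.75, SE 0.13, adjusted p = 0.0221, limma). Map7d1 was called lower with Dclk1 (-0.42, SE 0.11, adjusted p = 0.0490, limma), a call that was lost in 6 of the 10 other settings, edgeR among them.

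Of 17 transport motors and their adaptors tested, 5 rose (29.4%, beside 9.54% of all genes) and 1 fell (5.88%, beside 13.5%). Kif21b, a kinesin of dendrites and lymphocytes, rose from 21.04 and 24.99 RPM to 46.0 and 43.6 RPM (0.95, SE 0.13, adjusted p = 0.0144, limma). Its paralog Kif21a fell from 20.2 and 15.9 RPM to 6.70 and 8.55 RPM (-1.19, SE 0.20, adjusted p = 0.0200, limma). The kinesin adaptors Mapk8ip1 (0.86, adjusted p = 0.0297, limma) and Mapk8ip3 (0.59, adjusted p = 0.0346, limma) also rose.

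Of 12 growth cone and axon adhesion genes tested, 2 rose and 3 fell. L1cam, an axonal adhesion molecule also expressed by endothelium and by carcinoma cells, fell from 17.1 and 11.1 RPM to 2.40 and 2.20 RPM (-2.35, SE 0.25, adjusted p = 0.0116, limma). Nrn1, the neurite outgrowth protein neuritin, rose from 16.0 and 12.2 RPM to 39.4 and 41.1 RPM (1.49, SE 0.16, adjusted p = 0.0117, limma). Ncam1, another neural adhesion molecule, rose by a difference of 0.82 (SE 0.22, adjusted p = 0.0483, limma), a call that was lost in 3 of the 10 other settings.

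The pools were then examined for markers of neurons and of other cells that a tumor can hold. In bulk tissue, fewer cells of a type and less RNA per cell cannot be told apart. Of 27 neuron markers, 22 stayed under 1 RPM in every pool, 13 had at most 3 reads in each pool, and Th and Dbh were at 0 in all 4. The nuclear marker Rbfox3 did not exceed 0.150 RPM, the synaptic gene Snap25 did not exceed 0.4498 RPM, and these 2 were chosen after their values were seen. The summed level of the list was 56.2 and 43.9 RPM in LLC and 52.9 and 60.3 RPM in LLC-Chem, so that the groups overlapped. Whether neurons contribute to the level of Map2 was not tested. Among the 5 markers that passed the filter, Scn9a, a sodium channel of sensory neurons (1.70, SE 0.22, adjusted p = 0.0135, limma), and Uchl1, a neuronal ubiquitin hydrolase (1.21, SE 0.24, adjusted p = 0.0267, limma), rose, and Syn1, a synaptic vesicle protein and the most abundant of the list, fell (-1.06, SE 0.14, adjusted p = 0.0135, limma). The 13 Schwann cell and glia markers, led by Pmp22, summed to 216 and 228 RPM in LLC and 249 and 226 RPM in LLC-Chem, with overlapping groups.

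Vessel and leukocyte markers were lower in LLC-Chem, along with Tubb3, Nes, L1cam, Des and the other genes that fell. All 8 endothelial markers fell (100%), where 13.5% of all genes tested were called lower. Their median difference was -2.09, and their sum was 262 and 176 RPM in LLC and 60.9 and 35.5 RPM in LLC-Chem. Of 6 pericyte markers 4 fell (66.7%), and the sum of the list went from 177 and 135 RPM to 66.9 and 45.7 RPM. Of 7 leukocyte markers 5 were tested and 3 of these fell (60.0%). The list summed to 1002 and 1377 RPM in LLC and 713 and 386 RPM in LLC-Chem. None of these markers was at 0 in every pool, and their part in the lower levels of Nes, Tubb3 and the tubulins was not tested. Relative to the LLC mean, the LLC-Chem mean was 58.8% for Nes and 11.99% for Tubb3, beside 22.0% for the endothelial sum, 36.1% for the pericyte sum and 46.2% for the leukocyte sum. Fibroblast markers summed to 23400 and 44330 RPM in LLC and 32710 and 29650 RPM in LLC-Chem, with overlapping groups. The most abundant of these markers was Col3a1, whose pools overlapped. Col1a1 (-1.51, SE 0.33, adjusted p = 0.0334, limma) and Col1a2 (-1.46, SE 0.35, adjusted p = 0.0384, limma) fell and Pdgfra rose (0.72, SE 0.18, adjusted p = 0.0450, limma), out of 7 markers tested. Muscle lineage markers summed to at most 5.40 RPM, with Myod1, Myog, Pax7, Ckm and Myh4 at 0 in all 4 pools. Their sum was 2.35 and 3.30 RPM in LLC and 4.15 and 5.40 RPM in LLC-Chem, and Tnnt3, a troponin of fast muscle and the only one tested, rose from 1.05 and 1.75 RPM to 3.15 and 4.60 RPM (1.21, SE 0.30, adjusted p = 0.0419, limma). Its part in the higher level of Map2 was not tested.

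**Figure D5:**
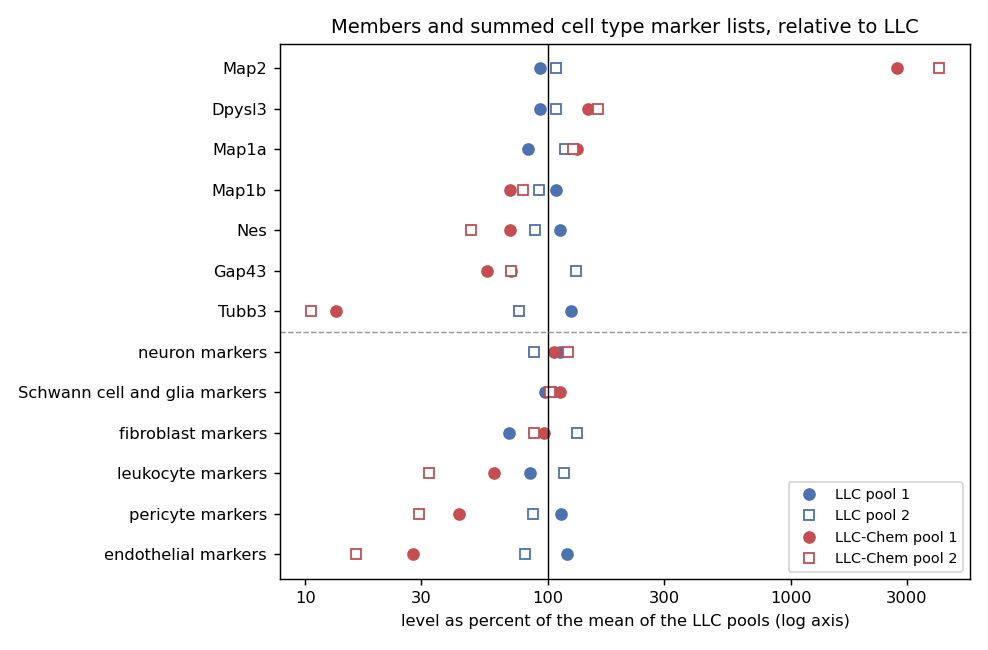
Level in each pool as a percent of the mean of the LLC pools, on a log axis, for the 7 tested genes of the set (above the dashed line) and for the summed RPM of 6 cell type marker lists (below it). The LLC-Chem pools of the neuron, Schwann cell and fibroblast lists lie among or near the LLC pools, while those of the endothelial, pericyte and leukocyte lists lie below them.

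The genes whose profile over the 4 pools came closest to Map2, by the Euclidean distance between log2 values after subtracting each gene's mean, were Peg3, Isl1 and S100a7a at distances of 0.44, 0.58 and 0.69. Peg3, an imprinted zinc finger gene, measured 20.1 and 22.2 RPM in LLC and 227 and 248 RPM in LLC-Chem. Isl1, a homeobox transcription factor of motor and sensory neurons, measured 0.8995 and 0.5997 RPM in LLC and 9.09 and 15.1 RPM in LLC-Chem. For Tubb3 the nearest were Brinp3 (0.17), Spic (0.20) and AW112010 (0.24). Brinp3, a gene of the nervous system, measured 5.10 and 2.60 RPM in LLC and 0.200 and 0.0999 RPM in LLC-Chem. Spic is a transcription factor of macrophages. Likeness over 4 pools in 2 groups orders genes mainly by the size of their group difference and says nothing of shared control.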

How the data were processed

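The authors mapped reads of the 4 pools to GRCm38 with STAR, counted them on genes with HTSeq and deposited RPM. Versions of STAR and HTSeq and the use of strand are not given in the sources used here. The deposited RPM were whole multiples of a step for 100% of values (within 0.05 of a step). A step stands for 1 or 2 reads if rounding up to steps is assumed, so reads were recovered to within about 1, and edgeR 4.0.16 (quasi-likelihood) on them called 1556 genes higher and 1615 lower. The reported fit was limma 3.58.1 in R 4.3.3 (lmFit, eBayes with trend, two-sided, Benjamini-Hochberg) on log2(RPM + 0.5), which called 1306 genes higher and 1848 lower. Pools of a group differed beyond counting noise (chi-square per gene 66.5 in LLC and 27.3 in LLC-Chem).

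The 10 genes and the lists were chosen with earlier results of these data known. Named genes are those 10, their closest relatives, up to 3 called genes of largest difference in each direction of every list, the most abundant and undetected markers, and the nearest profiles, and 1 marker is not reported here by name. Other processing tried was pseudocounts of 0.1 and 1, TMM and median-of-ratios scaling, other filters, eBayes without trend, replicate blocks, edgeR, DESeq2 1.42.0 and leaving out each pool. Positions and lengths are from GENCODE M21, which holds 98.9% of the identifiers. Summaries used pandas 2.3.3 and numpy 2.4.6 in Python 3.11.15, and plots matplotlib 3.10.9.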

Additional observations from a re-analysis of the deposited data

How the results depend on the processing

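The 2 genes of the set called higher became 1 with eBayes without trend and 1 with the replicate block (Dpysl3 lost in each), and the 2 called lower became 1 with a pseudocount of 0.1, TMM scaling, median-of-ratios scaling, a mean of at least 5 RPM, eBayes without trend or edgeR. Of the other cytoskeleton genes, the 11 called higher became 6 with eBayes without trend and 5 with the replicate block, and the causes were not tested. With no filter on low values, limma called 0 in both directions for the set (2 and 4 at an unadjusted p under 0.05) and 0 for the other genes (16 and 29), over 26260 genes tested, while DESeq2 with the filter called 2 and 3 of the set and 15 and 25 of the others. Leaving out each pool gave counts between 0 and 0 in each case (2 to 3 higher and 2 to 3 lower of the set at an unadjusted p under 0.05), with 1 pool left in an arm, assumed to vary like the other group, a design that called 0 of all genes and so says nothing of these calls. The difference of Map1s ran from -0.03 to 0.17 and that of Tubb4a from -0.86 to 0.01 when 1 pool was left out, with the sign turned without LLC-Chem pool 1 and without LLC pool 2. Among the genes whose difference is printed, no other changed sign. Over the 10 settings that kept all pools and a filter on low values, 21 of the 36 other named genes that were called kept their call in each one that tested them. Beside those given with their values, calls were lost with the replicate block for Dclk1, Map9, Hes1, Uchl1, Col1a1 and Col1a2, with eBayes without trend for Mapk8ip1, with both for Fyn, Ptbp2, Mapk8ip3 and Pdgfra (also lost with edgeR), and calls were gained with DESeq2 for Map4 and Vim, with DESeq2 and the crossed replicate block for Basp1, and in 5 of the 10 settings for Dpysl2 (TMM scaling, median-of-ratios scaling, edgeR, DESeq2 and the crossed replicate block).

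Pools with the same number did not deviate together (correlation -0.14) and are different animals. Whether they shared a graft day or a batch is not stated, and the reported fit used no pairing. The replicate block left 549 genes called higher and 1064 lower, and a crossed replicate block, added after the data were seen, gave 1579 and 2320. No setting moved the median of all genes by over 0.1. Below about 1 RPM, as for Mapt and Stmn2, counting error limits what can be compared.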

Other observations

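The lists of kinases and regulators hold genes that act on these proteins, and 9.54% of all genes were called higher and 13.5% lower. Of 14 kinases of microtubule-associated proteins tested, 2 fell (14.3%), Mark1, which phosphorylates tau and MAP2, from 15.04 and 13.6 RPM to 7.55 and 7.15 RPM (-0.92, SE 0.16, adjusted p = 0.0204, limma), and Fyn, a tau-binding kinase, from 79.8 and 93.3 RPM to 60.7 and 59.0 RPM (-0.53, SE 0.11, adjusted p = 0.0325, limma). Of 13 regulators of neuronal genes tested, 2 rose and 2 fell (15.4% each way). Sox11, a transcription factor of young neurons, fell from 3.70 and 3.55 RPM to 0.5497 and 0.4498 RPM (-2.05, SE 0.22, adjusted p = 0.0117, limma), and Hes1, a Notch target, also fell (-0.95, SE 0.20, adjusted p = 0.0299, limma). Rcor2, a corepressor of the REST complex (0.97, SE 0.13, adjusted p = 0.0141, limma), and Ptbp2, the neuronal polypyrimidine tract binding protein (0.74, SE 0.19, adjusted p = 0.0465, limma), rose. Rest itself, chosen after its values were seen, measured 56.1 and 50.8 RPM in LLC and 62.4 and 68.6 RPM in LLC-Chem (0.29, SE 0.11, adjusted p = 0.110, limma).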
